A study of Rattus norvegicus with 8 samples.

Results

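The brightest 25% of the cDNA clones on an array of supraoptic nucleus transcripts, 161 c clones and 127 d clones out of 576 clones with each letter, were compared between rats dehydrated for 3 days and control rats. The letter is part of each clone's number, and the labels do not explain it. The clones were chosen by intensity: they were ranked by intensity within each of the 8 arrays, the ranks of a clone were averaged over the arrays on which it had a value, and the 25% of clones with the highest mean rank were kept. These ranks use the intensities of both groups and no group label, so the brightness of these clones is given as a description. The dehydrated group had 4 arrays (replicates 1 to 4, whose titles carry the numbers 18, 19, 5 and 6) and the control group 4 arrays (titles 16, 17, 3 and 4). The rats of both groups were male Sprague Dawley animals, 10 to 12 weeks old. Total RNA was taken from their microdissected supraoptic nuclei, and each array was hybridised with cDNA of 1 sample labelled with radioactive CTP. The labels do not state how many animals stand behind an array.

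The supraoptic nucleus is a hypothalamic nucleus of magnocellular neurons, which make the peptide hormones vasopressin and oxytocin and release them from the posterior pituitary. Vasopressin makes the kidney retain water, and water deprivation is a standard stimulus for its synthesis and release. The series title names SSH-PCR, suppression subtractive hybridisation, which selectively amplifies cDNAs that one RNA pool holds in excess of another. The brightness of a spot depends on the amount of its transcript in the RNA, but also on the length and base composition of the clone and on the amount printed, so the order of the clones is one of signal and not of transcript copies. The transcripts behind the clone numbers are not analysed here, so the tissue could not be checked against marker genes.

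Total intensity ran from 8333213 to 17277998 on the dehydrated arrays and from 4652444 to 9933167 on the control arrays. Title numbers fall into a run from 3 to 6 and a run from 16 to 19, with 2 dehydrated and 2 control arrays apiece, and what a run stands for is not in the labels. In both groups the arrays of run 16 to 19 were the brighter ones. Nothing in the labels says that arrays with adjacent numbers come from separate animals, so p-values measure the spread between arrays, which may be technical in part.

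The bright clones made up 28.0% of all c clones and 22.0% of all d clones. Along the clone numbers the letters lie in 5 stretches. In the c stretch from 266 to 823, 159 of 558 clones were among the brightest, and in the c stretch from 183 to 200 only 2 of 18 were. In the d stretches, 39 of 182 clones from 1 to 182, 12 of 65 from 201 to 265 and 76 of 329 from 824 upwards were among them. The last 2 clones kept were d236, with a mean rank of 823.0, and d1023, with 822.75, and the first 2 left out were c688, with 822.625, and c405, with 822.5. These 4 clones differ in how they reached nearly the same mean rank. Clone d1023 ranked 807 to 824 on the dehydrated arrays and 810 to 868 on the control arrays, while d236 ranked 599 to 750 on the dehydrated arrays and 936 to 977 on the control arrays.

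The brightest clones held more of an array's signal after dehydration. They held 80.2%, 80.9%, 72.8% and 72.9% of the summed intensity on dehydrated replicates 1 to 4, against 70.6%, 70.6%, 64.2% and 63.0% on control replicates 1 to 4. The lowest dehydrated array lay above the highest control array, and within each group the arrays of run 16 to 19 lay above those of run 3 to 6. The share averaged 76.7% ± 4.4 on dehydrated arrays and 67.1% ± 4.1 on control arrays (SD, n = 4 each). The difference was 9.97 percentage points within run 16 to 19 and 9.25 within run 3 to 6. No p is given for this share, since the clones were chosen with earlier results of these arrays known.

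In summed intensity, the bright clones gave 2.07 times as much signal on dehydrated as on control arrays, and the other 864 clones 1.26 times as much. The ratio for the brightest clones was 2.05 within run 16 to 19 and 2.11 within run 3 to 6, and that for the other clones 1.19 and 1.38. In tissue RNA, a change in the number of cells of a type and a change in the RNA per cell cannot be told apart. Array brightness moved with the share, and its part in the result was not tested. The 2 dehydrated arrays of run 16 to 19 had both the highest totals and the highest shares. The dehydrated arrays of run 3 to 6 had totals of 8914431 and 8333213 and shares of 72.8% and 72.9%, and the control arrays of run 16 to 19 had totals of 9933167 and 8926209 and shares of 70.6% each. Without the dehydrated arrays of run 16 to 19, the difference in share was 5.77 percentage points over the remaining arrays. There the control group still holds both runs and the dehydrated group only run 3 to 6, so the runs are not balanced. Within run 3 to 6 alone the difference was 9.25 points. Whether the deposited values hold background is not known. With the lowest value of each array subtracted, the shares were 80.5% to 84.8% on dehydrated arrays and 71.7% to 75.8% on control arrays, ranges that do not overlap.

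The gain was not even over the bright clones. The 72 clones with the highest mean rank held 46.0%, 46.0%, 40.6% and 40.3% of the signal on dehydrated replicates 1 to 4, against 35.2%, 34.7%, 30.2% and 29.7% on control replicates 1 to 4. Every dehydrated array lay above every control array, and the difference of the means was 10.8 percentage points. The next 72 clones held 17.6% to 21.1% on dehydrated arrays and 16.9% to 19.7% on control arrays, ranges that overlap. The third set of 72 held less after dehydration, 8.68% to 8.97% against 9.79% to 10.1% on control arrays. The fourth set also held less, 4.81% to 5.79% against 6.01% to 6.85% on control arrays. The 10 clones at the top of the list alone held 8.70% ± 0.36 on dehydrated arrays and 6.33% ± 0.38 on control arrays (SD, n = 4 each).

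Of the gain of 9.61 percentage points in share, 7.27 lay in the d clones. The 127 bright d clones held 37.4%, 37.2%, 32.8% and 33.2% of the signal on dehydrated replicates 1 to 4, against 30.0%, 29.9%, 26.5% and 25.2% on control replicates 1 to 4. The groups did not overlap, and the difference of the means was 7.38 points within run 16 to 19 and 7.17 points within run 3 to 6. The 161 bright c clones held 42.7%, 43.8%, 40.0% and 39.7% on dehydrated replicates 1 to 4, against 40.6%, 40.7%, 37.8% and 37.8% on control replicates 1 to 4. Here the groups overlapped over both runs, with a difference of 2.33 percentage points. Within a run the dehydrated pair lay above the control pair, by 2.59 points in run 16 to 19 and by 2.08 in run 3 to 6. Dehydrated replicates 3 and 4 and control replicates 1 and 2 had totals close to each other. Among these the c share was lower on the dehydrated arrays, 40.0% and 39.7% against 40.6% and 40.7%, but the 2 pairs are of different runs. The part of array brightness was not tested. The c difference is small and moves with the background and the arrays used. It was 1.35 points with the lowest value of each array subtracted and 1.21 with the 1st percentile subtracted. Without the dehydrated arrays of run 16 to 19 it was 0.645, but there only the control group holds both runs. Among the 115 clones of highest mean rank the order turned, with a gain of 6.22 points for c and 5.79 for d clones. Of the signal of all bright clones, the d clones made up 45.8% ± 0.71 on dehydrated arrays and 41.5% ± 1.2 on control arrays (SD, n = 4 each), again without overlap.

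The gap between the median d clone and the median c clone of an array does not change when all its values are multiplied by one factor. Among the bright clones this gap (d minus c, log2 intensity) was 0.64, 0.47, 0.37 and 0.39 on dehydrated replicates 1 to 4, against 0.020, 0.099, -0.32 and -0.37 on control replicates 1 to 4. The median bright d clone therefore lay above the median bright c clone on all 4 dehydrated arrays and on 2 of the 4 control arrays, those of run 16 to 19. The gap averaged 0.47 ± 0.13 on dehydrated arrays and -0.14 ± 0.24 on control arrays (SD, n = 4 each), a difference of 0.61. The difference was 0.50 within run 16 to 19 and 0.72 within run 3 to 6. Among the other 864 clones the same gap averaged 0.57 ± 0.044 on dehydrated arrays and -0.97 ± 0.23 on control arrays (SD, n = 4 each), a difference of 1.54. The 2 differences were not tested against each other, so nothing particular to the bright clones is read from them. Among the 115 clones of highest mean rank, the difference in gap was 0.079.

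The make-up of an array's own brightest 25% shifted with the letters. It held 145, 141, 148 and 149 d clones on dehydrated replicates 1 to 4, against 107, 107, 110 and 107 on control replicates 1 to 4, the rest being c clones. The dehydrated arrays had 36.0 more d clones there on average within run 16 to 19 and 40.0 more within run 3 to 6. A core of 201 clones, 106 c and 95 d, lay in the brightest 25% on all 8 arrays, and such clones are kept by the rule by construction. Over the whole array, 26 clones were there on all 4 dehydrated arrays and on no control array, 21 of them d clones and 5 c clones. Conversely, 27 clones were there on all 4 control arrays and on no dehydrated array, 26 of them c clones and 1 a d clone. The mean rank kept 13 of the first 26 clones and 8 of the other 27. A clone that is bright in only one of the groups is thus often left out by the rule.

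Clone by clone, dehydrated and control arrays were compared after quantile normalization, which gives all arrays the same distribution of values, on the log2 scale with limma. All clones of the array were tested and p-values were adjusted over all of them (Benjamini-Hochberg, threshold 0.05). Of the bright clones, 73 were higher after dehydration, 50 were lower and 165 did not pass, so that 42.7% were called. Over all clones of the array 72.1% were called, 40.5% higher and 31.7% lower. The rule for brightness takes both groups, so a clone that is dim in either group seldom enters, and the lower share is in part fixed by the choice. The median difference (dehydrated minus control) of the bright clones was 0.090 in log2 units, and the middle 50% lay between -0.22 and 0.39, beside a median of 0.17 over all clones. The called rises ran from 1.14-fold to 2.64-fold with a median of 1.68-fold. The called falls ran from 1.16-fold to 5.67-fold with a median of 1.70-fold. Changes of 2-fold or more were called for 17 bright clones that rose and 15 that fell, while over all clones 9.03% rose and 12.8% fell by as much.

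The calls of the bright clones were also counted by letter. Of the 127 bright d clones, 53 rose and 9 fell, and 65 did not pass. Over all d clones 75.2% rose and 1.91% fell. Of the 161 bright c clones, 41 fell and 20 rose, and 100 did not pass. Over all c clones 61.5% fell and 5.73% rose. The 20 bright c clones that rose are thus 20 of the 33 c clones called higher anywhere on the array, and the 9 bright d clones that fell are 9 of 11. These counts depend on the scaling: 59 bright c clones were higher with median centring and 58 with no scaling, and 1 bright d clone was lower with median centring and 0 with no scaling (limma; 1 at an unadjusted p under 0.05). The median difference was 0.28 for bright d clones, with the middle 50% from 0.0085 to 0.76, and -0.058 for bright c clones, with the middle 50% from -0.46 to 0.23.

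Fewer clones were called towards the bright end of the list. From the highest mean rank down, 20, 26, 37 and 40 clones were called in the 4 sets of 72. In the top set 13 clones rose and 7 fell, and the median difference was 0.066 for both its 41 c clones and its 31 d clones. In the fourth set the median was 0.68 for the 30 d clones, 17 of which rose and 2 fell, and 0.0098 for the 42 c clones, 9 of which rose and 12 fell. In the second set the median was -0.24 for c and 0.21 for d clones, and in the third -0.093 and 0.48. The letters therefore had like medians in the top set alone and stood apart from the second set on. After quantile normalization the d median rose down the list, while the c median was lowest in the second set. Both orders depend on the scaling. With median centring the d medians from the top set down were 0.97, 0.73, 0.66 and 0.71, and the c medians 0.87, 0.24, 0.10 and 0.050. On the scale of array totals the d medians were 0.49, 0.25, 0.18 and 0.23, and the c medians 0.39, -0.24, -0.37 and -0.43. The order of call counts depends on the scaling too. With median centring 57 clones of the top set were called, all of them higher, and 42 of the fourth set.

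The direction of the bright clones as a group also depends on the scaling. With each array scaled to its total, which compares shares of array signal, 58 bright clones were higher and 57 lower (limma, adjusted p under 0.05), beside 10.9% higher and 34.1% lower over all clones. In the top set 30 clones were then higher and 3 lower, and in the fourth set 6 higher and 26 lower. With median centring 152 bright clones were higher and 21 lower, beside 44.1% and 26.8% over all clones. With no scaling 138 were higher and 5 lower, beside 49.4% and 9.98%. The median difference of the bright c clones was then 0.31 with median centring and 0.69 with no scaling, against -0.16 on the scale of array totals, while that of the bright d clones was 0.77, 1.16 and 0.30 in the same order. On each of 6 scalings (quantile, median, none, cyclic loess, array total and subtraction of the 1st percentile), 36 bright clones were called higher, 27 d and 9 c clones, and 5 were called lower, all c clones. Over all clones 8.94% were called higher and 9.98% lower on each of the 6. Of all d clones 16.3% were higher, and of all c clones 1.56% were higher and 20.0% lower. The falls on all 6 are as many as with no scaling, 5 bright clones and 9.98% of all clones. They are thus the falls of the unscaled fit, in which the dehydrated arrays were brighter as a whole. The balance of 36 rises and 5 falls is therefore not read as a result.

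On the bright clones the runs of title numbers stood far apart. After quantile normalization the median gap of a bright clone between arrays with adjacent title numbers was 0.055 to 0.092 on the log2 scale. Between arrays of one group from different runs it was 0.33 to 0.43. Between dehydrated and control arrays it was 0.32 to 0.38 within a run and 0.48 to 0.52 across runs. For the other 864 clones the gap was 0.074 to 0.11 between adjacent arrays, 0.19 to 0.23 between runs of one group and 0.63 to 0.75 between the groups. For bright clones the gaps between runs of one group overlapped those between the groups within a run, and reached higher. With group and run in one limma fit, the run term passed the threshold for 201 bright clones, 69.8%, 99 of them higher in run 16 to 19 and 102 lower. Over all clones it passed for 49.0%, 24.1% higher and 24.8% lower in run 16 to 19. The error left in that fit is mainly that between adjacent arrays. With the run in the fit, 200 bright clones were called between dehydrated and control arrays, 125 higher and 75 lower, beside 85.2% of all clones, 48.9% higher and 36.4% lower. The 123 clones called without the run term had the same direction in both runs, and so had 114 of the 165 that were not called. For the 123 this is close to fixed in advance. A clone with opposite directions in the runs could hardly be called over the same arrays.

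The spread sets what could be seen. The standard error of the difference between dehydrated and control arrays had a median of 0.15 on the log2 scale for bright clones, with the middle 50% from 0.11 to 0.22, and 0.11 for the other clones. When arrays with adjacent title numbers were averaged, which leaves 2 values a group, 54 bright clones remained called, 27 higher and 27 lower, all 54 among the 123. Over all clones 44.9% were called in that fit, 22.7% higher and 22.1% lower. Of the 54, 23 were d clones that rose, 24 c clones that fell, 4 c clones that rose and 3 d clones that fell.

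Clones c357 and c358, which are neighbours in number, had the lowest p among the bright clones that fell. Clone c357 had intensities of 9747, 8577, 6757 and 5529 on dehydrated replicates 1 to 4, against 40703, 28939.8, 14297 and 15269 on control replicates 1 to 4. Every dehydrated value lay below every control value although the dehydrated arrays were brighter as a whole. After normalization it averaged 12.73 ± 0.11 on dehydrated arrays and 15.23 ± 0.21 on control arrays (log2, SD, n = 4 each), 5.67-fold lower (log2 difference -2.50, SE 0.12, limma adjusted p = 3.4e-07). Clone c358 had 5324, 5263, 4386 and 4037 on dehydrated replicates 1 to 4, against 20491, 17204, 8733.5 and 9132.5 on control replicates 1 to 4, again without overlap. Its difference was -2.11 (SE 0.11, limma adjusted p = 4.6e-07), 4.30-fold lower. As a share of array signal, c357 held 0.052% to 0.076% on dehydrated arrays and 0.30% to 0.41% on control arrays. Averaging adjacent arrays gave a limma adjusted p of 0.0040 for c357 and 0.0042 for c358.

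Clones d234 and d851 had the lowest p among the bright clones that rose. Clone d234 had 18863, 15703, 10829 and 10086 on dehydrated replicates 1 to 4, against 5073, 4587, 3192 and 2797 on control replicates 1 to 4. The groups did not overlap, as deposited or normalized. After normalization it averaged 13.52 ± 0.12 on dehydrated arrays and 12.11 ± 0.11 on control arrays (log2, SD, n = 4 each), 2.64-fold higher (log2 difference 1.40, SE 0.093, limma adjusted p = 2.0e-06). Clone d851 had 16232, 14819, 8632 and 7882 on dehydrated replicates 1 to 4, against 5891, 5343, 3132 and 2952 on control replicates 1 to 4. Its difference was 1.06 (SE 0.071, limma adjusted p = 2.1e-06), 2.09-fold higher. Both clones stood near the lower end of the brightness order, at positions 266 and 263 of the list. Their sizes depend on the scaling: on the scale of array totals the log2 difference was 0.96 for d234 and 0.59 for d851, and with no scaling 1.82 and 1.45. Averaging adjacent arrays gave a limma adjusted p of 0.0057 for d234 and 0.0084 for d851.

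The exceptions to the letters included changes of more than 2-fold. The called rises had a median of 1.43-fold for bright c clones and 1.77-fold for bright d clones. The called falls had a median of 1.58-fold for bright d clones and 1.74-fold for bright c clones. Clone c722, the c clone with the largest called rise, had 19059, 20554, 7905 and 7522 on dehydrated replicates 1 to 4, against 5816, 5382.5, 2692 and 2701 on control replicates 1 to 4. The groups did not overlap, and its difference was 1.24 (SE 0.14, limma adjusted p = 4.5e-05), 2.37-fold higher. Clone d236, the d clone with the largest called fall, had 5993, 5819.99, 3677 and 2937 on dehydrated replicates 1 to 4, against 14829.9, 11863, 5638 and 5217 on control replicates 1 to 4. As deposited, its dehydrated values of run 16 to 19 lay above its control values of run 3 to 6, and after normalization the groups did not overlap. Its difference was -1.46 (SE 0.13, limma adjusted p = 1.1e-05), 2.76-fold lower, and it was no longer called with no scaling. Averaging adjacent arrays gave a limma adjusted p of 0.013 for c722 and 0.0085 for d236.

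The 4 clones at the top of the brightness order, all c clones, split into pairs. Clone c354 had 159844, 151110, 104022 and 97715 on dehydrated replicates 1 to 4, against 107845, 69929, 48670 and 52568 on control replicates 1 to 4. As a share of array signal it held 0.91% to 1.17% on dehydrated arrays and 0.78% to 1.13% on control arrays, ranges that overlap. Clone c333 had 122788, 113577, 99833 and 91279 on dehydrated replicates 1 to 4, against 81955, 58105, 49288 and 53240.3 on control replicates 1 to 4. Its share was 0.69% to 1.12% on dehydrated arrays and 0.65% to 1.14% on control arrays, which also overlap. Neither passed after quantile normalization, with log2 differences of -0.30 for c354 (limma adjusted p = 0.052) and -0.45 for c333 (limma adjusted p = 0.081). Both passed without some single arrays: c354 without dehydrated replicate 3 or 4 (limma adjusted p = 0.040 and 0.033), and c333 without dehydrated replicate 3 or 4 or control replicate 2 (limma adjusted p = 0.048, 0.045 and 0.039). With the run as a fixed block both passed, at a limma adjusted p of 0.022 for c354 and 0.00020 for c333. With adjacent arrays averaged neither passed (limma adjusted p = 0.26 for c354 and 0.27 for c333). With median centring both passed the other way, with log2 differences of 0.53 for c354 and 0.45 for c333 (limma adjusted p = 0.0045 and 0.013). Within the runs, c333 passed in both (limma adjusted p = 0.0049 in run 16 to 19 and 0.00017 in run 3 to 6), and c354 in run 16 to 19 alone (limma adjusted p = 0.0023). In a fit within a run each group is a pair of arrays with adjacent title numbers. The error is then only that between adjacent arrays, which may be technical.

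Clones c660 and c300 gained in share. Clone c660 had 202775, 172447, 88472 and 75329 on dehydrated replicates 1 to 4, against 60154, 50692.5, 27064 and 26719 on control replicates 1 to 4. It held 0.90% to 1.17% of the signal on dehydrated arrays and 0.57% to 0.61% on control arrays, without overlap. Clone c300 had 164878, 149263, 76325 and 70329.6 on dehydrated replicates 1 to 4, against 53129, 48290.4, 24387 and 25098 on control replicates 1 to 4. It held 0.84% to 0.95% on dehydrated arrays and 0.52% to 0.54% on control arrays, also without overlap. On the scale of array totals the log2 difference was 0.82 for c660 and 0.73 for c300. After quantile normalization it was 0.36 for c660 (limma adjusted p = 0.022) and 0.18 for c300 (limma adjusted p = 0.072). The call of c660 was lost under 7 of 21 alternatives, with a limma adjusted p of 0.17 when adjacent arrays were averaged. Single arrays decided it: the limma adjusted p was 0.055 without dehydrated replicate 2, 0.050 without control replicate 1 and 0.056 without control replicate 2. Clone c300 was called under 7 of 21 alternatives. Its limma adjusted p was 0.0011 on array totals, 0.00030 with median centring and 0.0065 with no scaling. It was 0.033 with the 5th percentile of all values added before normalization. It was 0.042 without control replicate 4, 0.027 with the run as a fixed block and 0.014 within run 16 to 19. With adjacent arrays averaged it was 0.37. Over all bright clones, the share of array signal did not overlap between the groups for 125, 60 of them higher on dehydrated arrays and 65 lower. Over all clones it did not overlap for 45.1%, 11.0% higher and 34.0% lower.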

How the data were processed

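Total RNA of 4 dehydrated and 4 control samples was measured on single-channel clone arrays. Per the labels' protocols, cDNA was made with reverse transcriptase and a poly(dT) primer and labelled with radioactive CTP. The authors deposited 1 linear intensity per clone and array, for 1152 clones, with 1 empty cell, in a bright c clone on control replicate 3, which was left out. The sources used here do not give the image quantification, the background correction or any scaling. There is no read depth; precision is limited by the number of arrays.

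The sample descriptions give the groups. Replicate numbers follow the accessions and pair no arrays. The members and tests were chosen with earlier results of these data known. Intensities were quantile normalized over the 8 arrays and put on the log2 scale without a pseudocount. They were tested in R 4.3.3 with limma 3.58.1 (lmFit, then eBayes, with a term for group alone, two-sided tests), adjusted by Benjamini-Hochberg over 1152 clones without a filter; 288 of them are the bright clones. Shares and gaps used the deposited intensities (pandas 2.3.3) and have no p. Clones were named by a rule: among called clones without overlap, the 2 rises and the 2 falls of lowest p, the 4 of highest mean rank, the 2 on either side of the rank limit, and the largest called change against the letter. The fit was tested on 20 simulated sets of 1152 clones, with 200 clones changed and no effect of array or run. These arrays have runs that differ and more clones called, so that test does not cover their setting. Alternatives are in the closing section; scaling to array totals, subtraction of the 1st percentile before shares, and shares without dehydrated arrays 18 and 19 were added after the data were seen.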

Additional observations from a re-analysis of the deposited data

Results flagged for a closer look

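In 66 groups of 4 arrays examined (array measures and named clones), 4 held an array far from the other 3. By chance about 1 group in 20 would. Control replicate 3 had 110 d clones and 178 c clones in its own brightest 25%, against 107 and 181 on each of the other control arrays. These 2 values are one observation, and the dehydrated arrays had 141 to 149 d clones. Clone d234 had a normalized log2 intensity of 12.28 on control replicate 3, above the other control arrays, and clone d851 had 12.16 on control replicate 4, below the other control arrays. Without each array in turn, the log2 difference of d234 was 1.35 to 1.48 and that of d851 1.01 to 1.09.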

How the results depend on the processing

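The 123 calls were 54 with adjacent arrays averaged, 200 with the run as a fixed block and 187 in arrays 3 to 6 only. With the run in the fit, or within a single run, the error is mainly that between adjacent arrays. The 73 rises were 152 with median centring, 138 with no scaling, 27 with adjacent arrays averaged, 125 with the run as a block and 115 in arrays 16 to 19 only. The 50 falls were 21, 5 and 27 under the first 3 of these and 78 in arrays 3 to 6 only. The 41 falls of c clones were 20, 5, 24 and 64 in the same order, and the 53 rises of d clones 93, 80 and 23, and 81 with the run as a block. The median difference of 0.090 was 0.95 with no scaling, 0.56 with median centring, 0.029 with cyclic loess, 0.056 in arrays 3 to 6, 0.14 in arrays 16 to 19 and 0.066 for the brightest 10%. That of c clones turned from -0.058 to 0.31 with median centring and 0.69 with no scaling, and that of d clones moved from 0.28 to 0.77 and 1.16. For the brightest 10%, the difference in share was 6.22 percentage points for c and 5.79 for d clones, and that in gap 0.079. Without dehydrated arrays 18 and 19 the difference in share was 5.77 points, 0.645 for c and 5.12 for d clones. The control arrays of both runs stayed in, so the runs are not balanced in that comparison. Clone c354 turned to 0.53 with median centring, 0.92 with no scaling, 8.9e-05 in arrays 3 to 6 and 0.053 on array totals, and c333 to 0.45 and 0.84 under the first 2. Leaving out each array gave 112 to 117 calls (64 to 69 higher, 47 to 52 lower, 39 to 44 c clones lower, 46 to 51 d clones higher), medians of 0.085 to 0.13, -0.087 to -0.034 for c and 0.26 to 0.32 for d clones, and a share difference of 8.20 to 10.9 points, 1.59 to 2.94 for c and 6.38 to 8.06 for d clones. The gap difference was then 0.53 to 0.69. Apart from the number of arrays or clones used, the cause was not tested. Clones c357, c358, d234, d851 and c722 kept direction and call under all 21 alternatives. Ranking by mean normalized log2 intensity kept 281 of the bright clones. Arrays were not matched one by one, since no label does so; the run served as the block.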

Other observations

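The bright clones with the largest difference between the runs, picked after their values were seen, were c319 and d1151. Clone d1151 had 62103.5 and 66005.5 on the dehydrated arrays of run 16 to 19 and 15434 and 14559.5 on those of run 3 to 6, with 36011 and 31560.6 and then 7835 and 7227 on the control arrays of the same runs. Its log2 difference between run 16 to 19 and run 3 to 6 was 1.10, and that between dehydrated and control arrays was 0.081 (limma adjusted p = 0.86). Clone c319 ran the other way, with 27067 to 34124 on the dehydrated arrays and 19526 to 22784 on the control arrays of both runs. Its values hardly differed between the runs while the arrays of run 16 to 19 were brighter as a whole, so its log2 difference between the runs after normalization was -1.24.

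Among the 123 called bright clones, 27 were followed in number by another called bright clone, and 24 of these 27 pairs of neighbours were called the same way. Neighbours mostly share a letter, and the letters differ in direction, so the share says little about neighbours beyond their letter.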
